A study of Mus musculus with 7 samples.

Results

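Transcripts of 8 genes of the outer living epidermis were followed in mouse skin without Tuft1, which encodes tuftelin 1. The genes are the transglutaminases Tgm1, Tgm3 and Tgm5, the secreted proteins Dmkn, Krtdap and Sbsn, the calmodulin-like Calml3, and Cnfn, a protein of the cornified envelope. They were chosen by name, from knowledge of the epidermis, with earlier results of these data known. They make up 8 of the 56691 genes in the count table. Skin of healthy appearance came from 3 Tuft1 knockout (KO) mice, numbered 2, 3 and 4, and skin of 4 wild-type (WT) mice, numbered 5, 6, 7 and 8, was the control. The labels name the genotypes only as KO and WT, without the allele, strain, age or body site. Each mouse gave 1 library, which read the 3′ ends of polyadenylated RNA, and the study linked loss of tuftelin 1 to desmosomes, skin fragility and woolly hair.

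Keratinocytes that leave the basal layer stop dividing, make new keratins and end as dead, flattened cells whose membrane is backed by a cross-linked protein shell, the cornified envelope. Transglutaminases are calcium-dependent enzymes that tie glutamine to lysine side chains and so join loricrin, involucrin and small proline-rich proteins into that shell. Suprabasal cells also release dermokine, keratinocyte differentiation-associated protein and suprabasin, whose functions are less well known, and whose genes lie side by side in mouse and human.

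The KO libraries held 7009237 to 9086523 counts and the WT libraries 8490972 to 9256459. Levels are given as CPM, counts divided by a library size that was scaled by trimmed means of M values (TMM). Because each transcript gives tags from its 3′ end only, CPM was not divided by transcript length when genes were compared. Tuft1 stood at 19.9, 29.1 and 17.2 CPM in KO mice and at 106, 104, 55.6 and 114 CPM in WT mice, with no overlap. An exact two-sided permutation test over 35 splits gave p = 0.0571 on CPM and p = 0.0286, the smallest possible, on log2 CPM. The tags do not show which part of the gene was removed, so this checks the labels only in part. The 12 keratinocyte markers, Krt5 and Krt14 among them, had counts in all 7 libraries, with a summed level of 16483 to 17934 CPM in KO and 16634 to 21013 CPM in WT skin. Of 16 hair shaft genes in the table, 15 had counts in KO mouse 2, against 2 and 3 in KO mice 3 and 4 and 2 to 4 in WT mice. Of 7 sebaceous gland markers tested, 6 were above 0 in log2 fold change of KO over WT (median 1.16), and the list summed to 1658 to 3941 CPM in KO and 1509 to 2155 CPM in WT skin. Of 6 endothelial markers, 5 were below 0 (median -0.90), with sums of 85.6 to 133 CPM in KO and 118 to 207 CPM in WT skin. The 6 melanocyte markers summed to 45.3 to 71.3 CPM in KO and 1.35 to 36.3 CPM in WT skin. The 4 of oral-type epithelium summed to 53.5 to 68.1 CPM in KO and 22.1 to 49.3 CPM in WT skin. Most of that sum was Krt78, at 49.5 to 64.5 CPM in KO and 22.1 to 49.3 CPM in WT mice. Only Krt78 of the 4 had enough counts to be tested, so the sum does not describe the list as a whole. Median log2 fold changes were 0.31 for skeletal muscle, 0.46 for fibroblasts and 0.12 for immune cells. For the 8 fat cell markers the median was -1.46, and 7 lay below WT without overlap, beside 3.45% of all genes tested. No marker in these lists was called by edgeR, and the part of these cell types in the levels of the 8 genes was not tested.

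No gene of the 8 was called different between KO and WT skin. In bulk tissue such as this, fewer cells of a type and less RNA per cell cannot be told apart. With edgeR's quasi-likelihood test and Benjamini-Hochberg adjustment over 12888 genes, 0 of the 8 had an adjusted p below 0.05, beside 0.0233% of all genes tested (0.0155% higher and 0.00776% lower in KO). At an unadjusted p below 0.05 the count was also 0 of 8, beside 4.31% of all genes, and DESeq2 and limma-voom likewise called 0 of the 8, with 2 each at an unadjusted p below 0.05, beside 7.39% of all genes in DESeq2 and 6.56% in limma-voom. Tuft1 was not called by the same edgeR test either (log2 fold change -2.10, edgeR adjusted p = 0.172), though DESeq2 called it (adjusted p = 8.6e-06). The absence of an edgeR call therefore does not show the absence of a change. All 8 passed the filter on low counts, Tgm1 and Sbsn only through the WT libraries. Fitted differences were negative for 6 genes and positive for Tgm5 and Calml3, with a median log2 fold change (KO over WT) of -0.74, against -0.01 over all genes tested. The levels of Sbsn did not overlap between the groups, the only such case among the 8, where 6.89% of all genes tested did not overlap (3.44% with KO above and 3.45% with KO below WT).

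**Figure D1:**
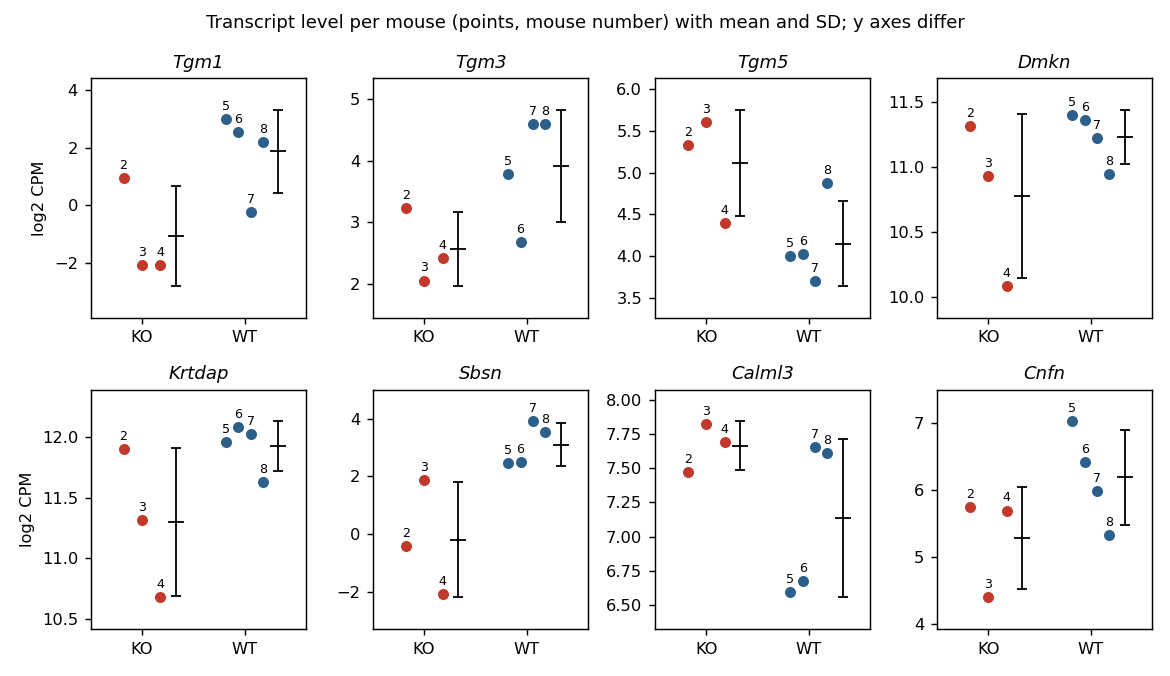
Log2 CPM of each of the 8 genes (y axis, scale differing by panel) in 3 KO (left, red) and 4 WT (right, blue) mice. Points carry the mouse number, and the bar and whiskers give the mean and SD; values for 0 counts rest on a prior count of 2. Sbsn is separated between the groups, and the other 7 genes overlap.

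Tgm1 encodes the membrane-anchored transglutaminase of keratinocytes, whose loss causes lamellar ichthyosis in humans. Its tags were scarce. They came to 13, 0 and 0 counts in KO mice 2, 3 and 4, against 71, 49, 5 and 35 counts in WT mice 5, 6, 7 and 8. In CPM, Tgm1 was at 1.68, 0 and 0 in KO mice and at 7.64, 5.52, 0.614 and 4.33 in WT mice. A count of 0 allows up to 0.336 CPM in KO mouse 3 and 0.395 CPM in KO mouse 4, taking 3 counts as the limit. KO mouse 2 therefore lay above WT mouse 7, and the groups overlapped. The log2 fold change was -2.98 (SE 2.76, 95% interval -8.94 to 2.98), with an edgeR adjusted p = 0.9997. Without KO mouse 2 the fitted value was -8.27, a size set by the remaining zeros. The gene spans 55937466 to 55951383 on the minus strand of chromosome 14 (mm39), and 182 bases of its exons overlap Gm49067 on the other strand, which had 0 counts. Strand use in counting is not described, so those 0 counts do not show whether tags fell in the shared bases.

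Tgm3 encodes a transglutaminase of the upper epidermis and the hair follicle that is made as an inactive precursor and cut to become active. It was at 9.19, 3.92 and 5.13 CPM in KO mice 2, 3 and 4, against 13.6, 6.19, 24.1 and 24.0 CPM in WT mice 5, 6, 7 and 8. Only KO mouse 2 reached into the WT range, above WT mouse 6. The mean was 6.08 ± 2.76 CPM (SD, n = 3) in KO and 17.0 ± 8.71 CPM (SD, n = 4) in WT skin. On the log2 scale the fold change was -1.48 (SE 1.14, 95% interval -3.95 to 0.99; edgeR adjusted p = 0.9997). In KO mouse 2 the inner root sheath gene Tchh, which encodes the transglutaminase substrate trichohyalin, stood at 239 CPM, against 0 and 10.3 CPM in the other KO mice and 0 to 9.41 CPM in WT mice. Counts were present there for 9 of the 10 inner root sheath genes, against 1 and 2 in KO mice 3 and 4 and 1 to 2 in WT mice. The part of this hair content in the Tgm3 level was not tested. Tgm3 lies on chromosome 2 at 129854269 to 129892319 (mm39, plus strand).

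Tgm5 encodes a transglutaminase of the upper epidermis, and variants of it cause acral peeling skin syndrome in humans. Its mean was the highest of the 3 enzymes in KO skin and, by little, in WT skin (18.4 CPM, against 17.0 CPM for Tgm3). In log2 fold change it ran the other way from Tgm1 and Tgm3. Tgm5 was at 40.1, 48.5 and 20.8 CPM in KO mice 2, 3 and 4, against 15.7, 16.1, 12.8 and 29.2 CPM in WT mice 5, 6, 7 and 8. KO mice 2 and 3 lay above the WT mice, and KO mouse 4 lay below WT mouse 8. The mean was 36.5 ± 14.2 CPM (SD, n = 3) in KO and 18.4 ± 7.33 CPM (SD, n = 4) in WT skin. KO over WT, the log2 fold change was 0.98 (SE 0.62, 95% interval -0.36 to 2.32; edgeR adjusted p = 0.9997). Tgm5 spans 120876592 to 120916322 on the minus strand of chromosome 2 (mm39), between Epb42 and Tgm7, which are transglutaminase relatives. Tgm7 had 0 counts in all 7 libraries, and Epb42, the red cell membrane protein that has lost the enzyme activity, had counts in WT mouse 8 only, at 7.67 CPM.

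The summed level of the 3 enzymes was 43.1 ± 14.9 CPM (SD, n = 3) in KO and 39.9 ± 12.6 CPM (SD, n = 4) in WT skin, a difference smaller than the spread within either group. Their proportions were less alike. Tgm5 supplied 78.7%, 92.5% and 80.2% of the summed CPM in KO mice 2, 3 and 4, against 42.6%, 57.9%, 34.1% and 50.8% in WT mice 5, 6, 7 and 8, and these shares did not overlap. Tgm3 supplied 18.02%, 7.48% and 19.8% in KO mice, and 36.7%, 22.3%, 64.3% and 41.7% in WT mice. Tgm1 supplied 3.30%, 0% and 0% in KO mice, and 20.7%, 19.8%, 1.64% and 7.53% in WT mice. The shares were computed after the counts had been seen, from 3 enzymes whose own levels each overlapped between the groups. How often like shares of other genes fail to overlap was not computed. The shares are given without a test.

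**Figure D2:**
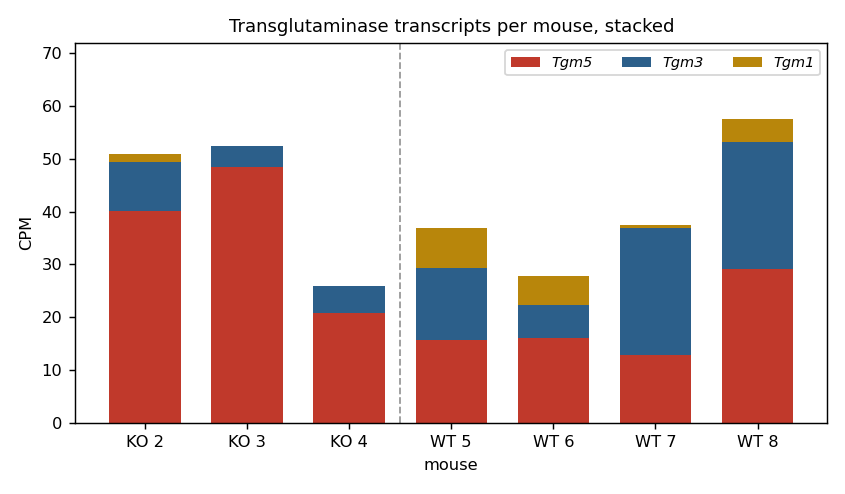
CPM of Tgm5 (red, bottom), Tgm3 (blue) and Tgm1 (yellow, top), stacked for each mouse, with KO mice left of the dashed line and WT mice right of it. Total heights overlap between the groups, and Tgm5 fills 78.7% to 92.5% of the bar in KO mice and 34.1% to 57.9% in WT mice.

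Dmkn, Krtdap and Sbsn lie in a row on the plus strand of chromosome 7, from the start of Sbsn at 30450896 to the end of Krtdap at 30490522 (mm39), a stretch of 39.6 kb. Dmkn begins 7.6 kb after the end of Sbsn, Krtdap begins 6.8 kb after the end of Dmkn, and the table has no gene lying wholly in either gap. In spite of this closeness their counted levels were far apart. Krtdap was the 13th and Dmkn the 28th most abundant gene in WT skin by mean CPM, while Sbsn was the 9382nd. Tags in 279 exon bases that Sbsn shares with another gene model cannot be assigned to either. The part of this in its low rank was not tested.

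The stretches of 250 bases before the annotated starts are printed because these neighbours share one short feature, with matches to the AP-1 site TGANTCA in capitals. They come from RefSeq, on build GRCm38.p6, plus strand, so their coordinates are not those of the count table. Dmkn has an upstream start (chr7:30763506-30763755) and an internal start (chr7:30776155-30776404), Krtdap one start (chr7:30787655-30787904) and Sbsn one start (chr7:30751221-30751470).
Dmkn, upstream start: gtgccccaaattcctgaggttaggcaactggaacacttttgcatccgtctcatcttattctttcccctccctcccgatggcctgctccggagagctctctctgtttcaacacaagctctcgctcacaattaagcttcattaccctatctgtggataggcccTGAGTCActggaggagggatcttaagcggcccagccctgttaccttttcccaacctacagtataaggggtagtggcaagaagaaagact
Dmkn, internal start: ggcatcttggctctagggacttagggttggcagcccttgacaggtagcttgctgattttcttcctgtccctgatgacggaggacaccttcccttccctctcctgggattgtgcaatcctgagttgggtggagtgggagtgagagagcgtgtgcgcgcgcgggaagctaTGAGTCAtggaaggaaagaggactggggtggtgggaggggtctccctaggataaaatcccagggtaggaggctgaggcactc
Krtdap: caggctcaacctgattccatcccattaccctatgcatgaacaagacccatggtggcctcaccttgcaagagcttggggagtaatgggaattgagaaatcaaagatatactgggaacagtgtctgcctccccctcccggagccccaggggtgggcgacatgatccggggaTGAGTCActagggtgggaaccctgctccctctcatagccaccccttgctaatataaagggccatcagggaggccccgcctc
Sbsn: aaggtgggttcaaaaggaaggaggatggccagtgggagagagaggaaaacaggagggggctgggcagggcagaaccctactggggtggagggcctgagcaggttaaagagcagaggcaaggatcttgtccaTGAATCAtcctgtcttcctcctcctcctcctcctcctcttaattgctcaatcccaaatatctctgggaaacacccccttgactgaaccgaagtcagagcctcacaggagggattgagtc
Each of the 4 windows held 1 match, read as TGAGTCA in both Dmkn windows and in Krtdap and as TGAATCA in Sbsn. With the 50 bases after the start included, Sbsn held 2 matches, and both Dmkn windows and Krtdap still 1 each. The first letter of the match lay 89 and 82 bases before the upstream and internal starts of Dmkn, 81 bases before that of Krtdap and 119 bases before that of Sbsn. Among 32817 RefSeq windows of the same length, 6.75% held the letters on either strand. The 5 windows of Tgm1, Tgm3, Tgm5 and Cnfn held none, and Calml3 was not analysed here. The TATA letters TATAAA were found before Krtdap and Tgm3, as in 12.4% of all windows. AACCGGTT, the site of grainyhead factors, was in none of the 9 windows and in 0.116% of all windows. A match describes the sequence and does not show binding.

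Dmkn, which encodes dermokine, was at 2558, 1951 and 1088 CPM in KO mice 2, 3 and 4, against 2711, 2629, 2394 and 1975 CPM in WT mice 5, 6, 7 and 8. KO mouse 2 lay within the WT range, KO mouse 3 just under it and KO mouse 4 far under it. The mean was 1865 ± 739 CPM (SD, n = 3) in KO and 2427 ± 330.0 CPM (SD, n = 4) in WT skin. The log2 fold change was -0.38 (SE 0.26, 95% interval -0.94 to 0.18; edgeR adjusted p = 0.9997). Without KO mouse 4 it was -0.11, and without KO mouse 2 it was -0.68.

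Krtdap, which encodes keratinocyte differentiation-associated protein, was at 3835, 2548 and 1638 CPM in KO mice 2, 3 and 4, against 3993, 4343, 4175 and 3169 CPM in WT mice 5, 6, 7 and 8. The KO mice had the same order as for Dmkn, with mouse 2 inside the WT range and mice 3 and 4 below it. The mean was 2674 ± 1104 CPM (SD, n = 3) in KO and 3920.2 ± 521 CPM (SD, n = 4) in WT skin. Its log2 fold change was -0.55 (SE 0.26, 95% interval -1.12 to 0.01; edgeR adjusted p = 0.9997), and its unadjusted p was the smallest of the 8 genes. The lowest adjusted p over its alternatives was 0.196, in limma-voom. Without KO mouse 4 the log2 fold change was -0.30, and without KO mouse 2 it was -0.91.

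In KO skin the log2 levels of Dmkn and Krtdap had SDs of 0.63 and 0.61, against 0.21 and 0.20 in WT skin. Both genes moved together from mouse to mouse. Counts of Krtdap per count of Dmkn were 1.499, 1.31 and 1.51 in KO mice 2, 3 and 4, and 1.47, 1.65, 1.74 and 1.604 in WT mice 5, 6, 7 and 8. The ratio thus ranged much less than either gene did. Likeness of patterns was measured as the root mean square difference between log2 CPM values over the 7 libraries, each gene centred on its own mean. Of 9227 genes with a mean of at least 10 CPM, Krtdap was the 2nd closest to Dmkn (0.12 log2 units), after Naca, a subunit of the complex that binds new polypeptides at the ribosome (0.094), where the median over all genes was 0.77. Dmkn was also the 2nd closest to Krtdap, after Krt77, a keratin of the epidermis (0.12). For the enzymes the closest were Tet3 for Tgm1 (0.84), B3gntl1 for Tgm3 (0.22) and Nqo2 for Tgm5 (0.22). The suprabasal keratin Krt10 ranked 7th from Krtdap (0.16) and 13th from Dmkn (0.18), and was named for this after its values were seen. Krt10 stood at 4322, 3683 and 2580.2 CPM in KO mice and at 4622, 5799, 5109 and 4286 CPM in WT mice.

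**Figure D3:**
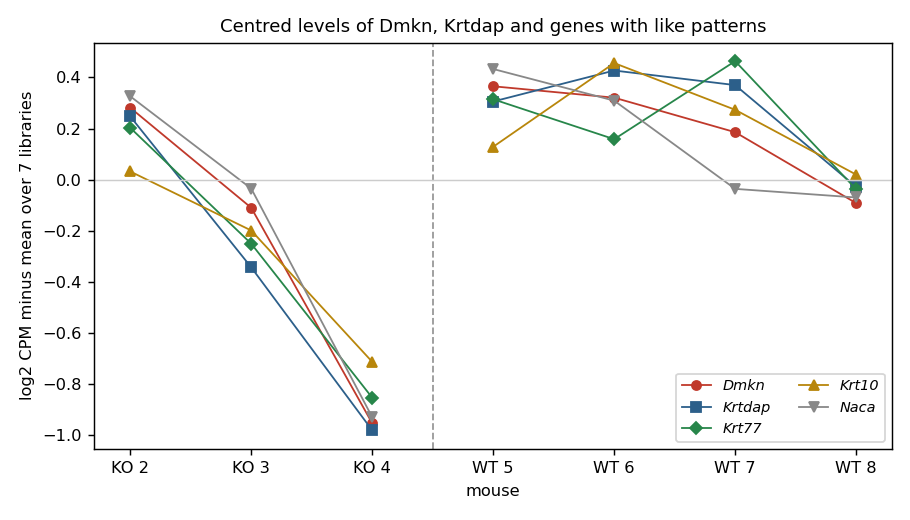
Log2 CPM of Dmkn, Krtdap, Krt77, Krt10 and Naca in each mouse, minus the gene's mean over the 7 libraries (y axis), with KO mice left and WT mice right. All 5 genes are lowest in KO mouse 4, and in KO mouse 2 Dmkn and Krtdap stand within the range of the WT mice.

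Sbsn, which encodes suprabasin, gave 4, 31 and 0 counts in KO mice 2, 3 and 4, against 49, 48, 120 and 93 counts in WT mice 5, 6, 7 and 8. In CPM it was at 0.518, 3.47 and 0 in KO mice and at 5.28, 5.40, 14.7 and 11.5 in WT mice, without overlap. A count of 0 allows up to 0.395 CPM in KO mouse 4. The mean was 1.33 ± 1.87 CPM (SD, n = 3) in KO and 9.23 ± 4.68 CPM (SD, n = 4) in WT skin, or 14.4% of the WT level. The log2 fold change was -2.78 (SE 2.20, 95% interval -7.54 to 1.98; edgeR adjusted p = 0.9997), and -5.07 without KO mouse 3. It was below 0 in each of the 14 alternatives. These reuse the same counts, and leaving out a mouse cannot turn the sign where the groups do not overlap. Tags in the 279 exon bases that Sbsn shares with a Tmem147os gene model on the same strand cannot be assigned to either. That model had 0 counts, which does not show whether tags fell in the shared bases. The gene closest in pattern was Ppp1r1a, an inhibitor of protein phosphatase 1, at 8.15, 38.6 and 6.97 CPM in KO mice and 98.4, 49.4, 146 and 129 CPM in WT mice (log2 fold change -2.55, SE 0.62, edgeR adjusted p = 0.489). Ppp1r1a was picked for its likeness to Sbsn over these same libraries, so its lower level in KO follows from that choice. It was called in DESeq2, as were 125 of 12888 genes in all, and without a filter on low counts, as were 76 of 19128. All 8 fat cell markers were below 0 in log2 fold change, had counts in each library and summed to 7421 to 8985 CPM in KO and 13262 to 20028 CPM in WT skin. The part of fat tissue in the Sbsn and Ppp1r1a levels was not tested.

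Calml3 encodes a calmodulin-like calcium sensor of epithelial cells. It was at 177, 226 and 207 CPM in KO mice 2, 3 and 4, against 96.7, 102, 202 and 196 CPM in WT mice 5, 6, 7 and 8. The WT mice formed a low and a high pair, and the KO mice overlapped the high pair. The mean was 203 ± 24.8 CPM (SD, n = 3) in KO and 149 ± 57.4 CPM (SD, n = 4) in WT skin, or 0.45 as a log2 fold change (SE 0.30, 95% interval -0.20 to 1.10; edgeR adjusted p = 0.9997). Without WT mouse 5 the value was 0.29. Psma3, a proteasome subunit, had the most similar pattern (0.11 log2 units). The 1 exon of Calml3 lies at 3852896 to 3854316 on the minus strand of chromosome 13 (mm39). Calm4, a calmodulin-like gene of mouse skin, was at 1350.1, 1478 and 1432 CPM in KO mice and at 1834, 1672, 1561 and 1493 CPM in WT mice, without overlap (log2 fold change -0.21, SE 0.18, edgeR adjusted p = 0.9997). It was the only 1 of 6 calmodulin genes tested whose groups did not overlap, and it had the smallest p of them. Over all genes tested, 6.89% did not overlap.

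Cnfn, which encodes cornifelin, was at 53.2, 20.8 and 51.4 CPM in KO mice 2, 3 and 4, against 129.5, 84.6, 63.2 and 39.9 CPM in WT mice 5, 6, 7 and 8. Its lowest KO value was in mouse 3, not in mouse 4 as for Dmkn and Krtdap. KO mice 2 and 4 lay between WT mice 8 and 7. The mean was 41.8 ± 18.2 CPM (SD, n = 3) in KO and 79.3 ± 38.1 CPM (SD, n = 4) in WT skin. The log2 fold change was -0.92 (SE 0.46, 95% interval -1.93 to 0.08; edgeR adjusted p = 0.9997). Without WT mouse 5 it was -0.58. Fgfbp1, which encodes a carrier of fibroblast growth factors, had the most similar pattern (0.20 log2 units). Cnfn also lies on chromosome 7 (25067045 to 25069149, minus strand, mm39), 5381.7 kb from Sbsn.

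**Figure D4:**
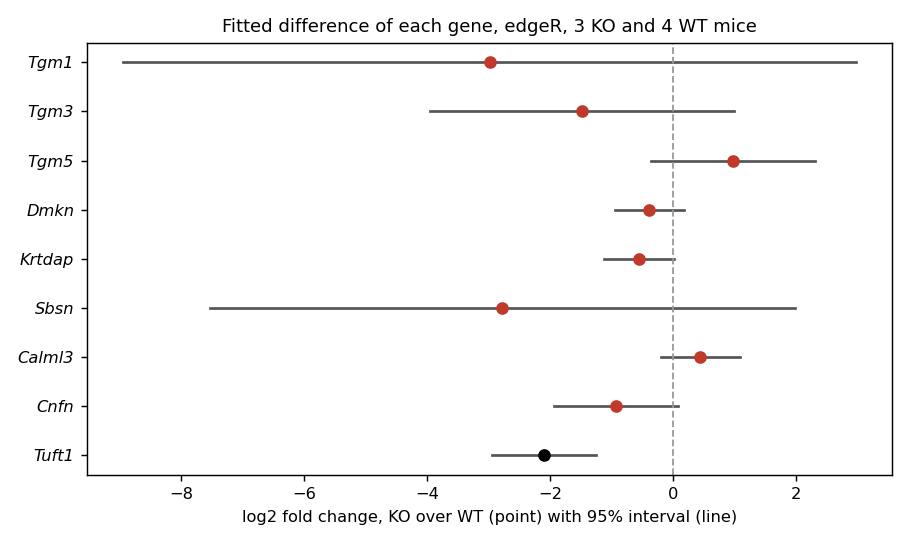
Log2 fold change of KO over WT for the 8 genes (red) and Tuft1 (black), with 95% intervals from edgeR (x axis). All 8 red intervals cross 0, and those of Dmkn and Krtdap are the narrowest, at -0.94 to 0.18 and -1.12 to 0.01.

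The 95% intervals set what the data could show. They were narrowest for the abundant Dmkn and Krtdap and widest for Tgm1, the scarcest of the 8. KO mouse 2 bore most on the picture. Without it, 6 of the 8 genes did not overlap between the groups, where 15.7% of all genes tested did not overlap. Tgm1, Tgm3, Dmkn, Krtdap and Sbsn then lay below WT, and Calml3 lay above. The lowest edgeR adjusted p of the 8 genes was then 0.465, and Dmkn and Krtdap had an unadjusted p below 0.05, beside 6.16% of all genes. Leaving out WT mouse 8 gave 4 genes without overlap (Tgm5 above WT, and Krtdap, Sbsn and Cnfn below), beside 12% of all genes. Krtdap and Cnfn then had an unadjusted p below 0.05, beside 4.32% of all genes. Counts of 2 came without KO mouse 4 (Tgm5 and Sbsn, beside 13.2%), WT mouse 6 (Tgm3 and Sbsn, beside 11.6%) and WT mouse 7 (Tgm1 and Sbsn, beside 11.7%), and Sbsn alone was left without KO mouse 3 (beside 13.4%) and WT mouse 5 (beside 11%). As a log2 level minus the mean log2 level of the 12 keratinocyte markers, Krtdap stood at 1.52 ± 0.55 in KO and 2.02 ± 0.23 in WT skin, and Tgm5 at -4.67 ± 0.52 in KO and -5.75 ± 0.58 in WT skin (SD, n = 3 and 4).

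Among genes that work with the 8, edgeR made no call. Among other transglutaminases, 2 of 7 had enough counts to be tested, Tgm2, the tissue transglutaminase, and F13a1, the factor XIII subunit. Tgm2 was at 176, 127 and 44.2 CPM in KO mice and at 106, 155, 119 and 183 CPM in WT mice, so KO mouse 4 was low here too. Of the 5 genes that cut transglutaminases or restrain the cutting, 3 were above 0 and 2 below, with a median of 0.08. Cst6, the protease inhibitor cystatin E/M, was at 77.8, 1.46 and 76.9 CPM in KO mice and at 42.7, 29.9, 6.26 and 14.7 CPM in WT mice, and KO mouse 3 was the lowest of all 7. Ctsl, the protease cathepsin L, averaged 201 ± 94.1 CPM in KO and 283 ± 44.9 CPM in WT skin (SD, n = 3 and 4).

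Of 34 substrate genes of the cornified envelope in the table, 18 were tested, 9 above 0 and 9 below, with a median of -0.10 and 0 called in either direction. Without overlap, 1 lay above WT and 2 below, beside 3.44% and 3.45% of all genes tested. An unadjusted edgeR p below 0.05 was reached by 6 of the 18, beside 4.31% of all genes. Flg, Lor and Ppl are named because their p was the smallest in this list. Their summed level was 11813 to 16387 CPM in KO and 17227 to 21389 CPM in WT skin. Krt10 and Lor, the most abundant of them, weighed most in this sum, so it does not describe the list as a whole. Lor, which encodes loricrin, the main envelope protein, was at 3882, 4505 and 3807 CPM in KO mice and at 6415, 4580.1, 7906 and 5779 CPM in WT mice. The KO mice lay below the WT mice without overlap (log2 fold change -0.60, SE 0.21, edgeR adjusted p = 0.979). Ppl, the envelope and desmosome protein periplakin, was lower without overlap as well, at 266 ± 94.5 CPM in KO and 422 ± 44.2 CPM in WT skin (SD, n = 3 and 4; edgeR adjusted p = 0.9997). Flg, which encodes the precursor of filaggrin, ran the other way, at 169, 141 and 128 CPM in KO mice and 71.4, 46.1, 77.0 and 79.5 CPM in WT mice. It had the smallest p of these genes (log2 fold change 1.09, SE 0.28, edgeR adjusted p = 0.519), and was called by DESeq2 (adjusted p = 0.0124, the lowest among alternatives that reach 1).

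Of 12 transcription factors of suprabasal differentiation, all tested, 10 were below 0 and 2 above, with a median of -0.16, and 0 were called. Without overlap, 1 lay above WT and 1 below, beside 3.44% and 3.45% of all genes tested. These were Maf and Cebpa, which had the smallest p of this list. Cebpa, a factor of keratinocyte and fat cell differentiation, was at 104, 117 and 101 CPM in KO mice and at 170.4, 179, 165 and 149.9 CPM in WT mice, without overlap (log2 fold change -0.63, SE 0.23). The part of fat tissue in the Cebpa level was not tested. Maf, a factor of late epidermal differentiation in human skin, was at 430, 449 and 514 CPM in KO mice and at 262, 321, 311 and 367 CPM in WT mice, above WT without overlap (log2 fold change 0.56, SE 0.20; edgeR adjusted p = 0.9997 for both).

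**Figure D5:**
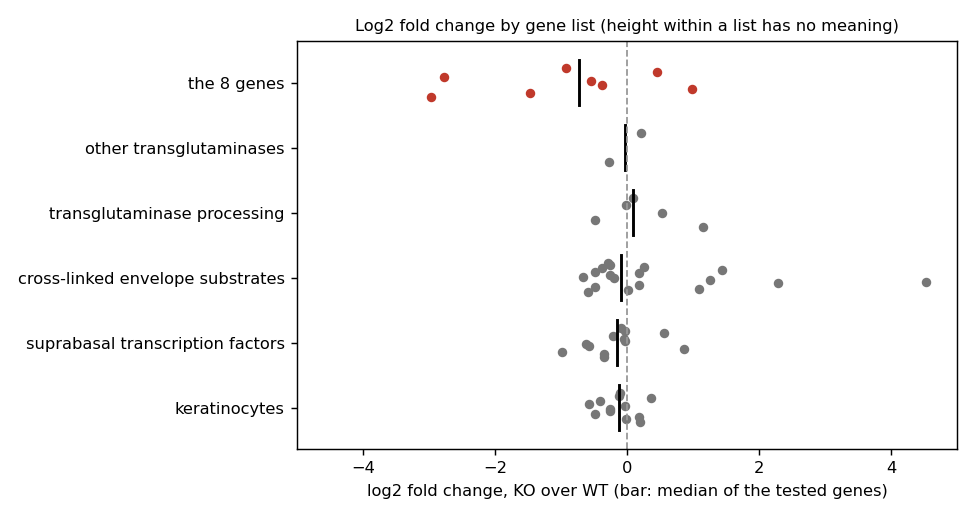
Log2 fold change of KO over WT (x axis) for each tested gene of 6 lists, with the median of each list as a black bar. The 8 genes (red) have a median of -0.74, and the 18 envelope substrates and 12 keratinocyte markers have medians of -0.10 and -0.12.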

How the data were processed

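The 7 libraries were made with a 3′ kit, per the labels, and the authors deposited raw read counts for 56691 genes. Build mm39, featureCounts with Subread 2.0.3, STAR, edgeR 3.36.0 and GATK 4.2.4.0 appear in the submitters' processing notes, without roles. Neither strand use nor duplicate removal is described there. The authors also deposited log2 CPM of 12954 genes after their own filter and scaling. All 90678 such values followed from the raw counts within a tolerance of 1e-09 and served only as an alternative gene set.

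Counts were fitted in edgeR 4.0.16 (R 4.3.3) with its expression filter (minimum 10 counts), TMM factors and the quasi-likelihood F test over 12888 genes, called at an adjusted p below 0.05. Standard errors come from the F statistic. Log2 CPM used a prior count of 2. Limits for 0 counts (3 counts) cover counting error only, and p-values measure only the spread between these mice. No pair of libraries had equal counts in more than 11.7% of 14720 genes, so none looked deposited in duplicate. A single simulated data set for KO over WT had 12888 genes, with 50 changed at each fold size, drawn from all levels. The share of changed genes called was 2% at 2-fold, 36% at 4-fold, 30% at 8-fold and 50% at 16-fold. Of 12688 unchanged genes, 1 was called. These shares are rough and do not apply to scarce genes alone.

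Alternatives were DESeq2 1.42.0, limma-voom (limma 3.58.1), other scalings, no filter, the authors' gene set and each mouse left out. The 8 genes and the lists were chosen with earlier results of these data known. Named genes are the 8, Tuft1, up to 3 genes with the smallest p per list of partners, and the 2 closest in pattern to each of the 8, of which some are printed. No protein sequences were used, and some results are not reported here.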

Additional observations from a re-analysis of the deposited data

Results flagged for a closer look

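WT mouse 7 stood apart from the other WT mice in Tuft1, with a log2 CPM of 5.80 where they had 6.70 to 6.84. This was the only such case among the 37 genes examined in the 4 WT mice, while about 1 in 20 (1.85 of 37) is reached by chance. None of the 8 genes had such a mouse.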

How the results depend on the processing

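The signs of the 8 genes and the absence of a call among them were the same in all 14 alternatives, though DESeq2 gave no adjusted p for Tgm1. Over all genes, 76 were called without a filter on low counts, 125 by DESeq2 and 22 by limma-voom, and 0 to 1 with 1 mouse left out, against 3 in the full comparison. With 1 mouse left out, 1 to 6 of the 8 genes did not overlap between the groups, and their median log2 fold change ran from -1.02 to -0.56. Scaling to the keratinocyte markers moved the median of all genes to 0.11 and that of the 8 genes to -0.59. Among the other named genes, the log2 fold change turned to -0.20 for Cst6 in limma-voom. With 1 mouse left out it ran from -0.10 (KO mouse 2) to 0.46 for F13a1, from -0.61 (KO mouse 2) to 1.13 for Lgmn and from -0.72 to 0.10 (KO mouse 4) for Tgm2, and the cause was not tested. On log2 CPM, an alternative chosen after seeing the data, Tuft1 differed by -2.07 (KO minus WT), with the smallest permutation p. No paired analysis was possible because the groups share no mouse numbers. Depth limits Tgm1 and Sbsn, which had 173 and 345 counts over all libraries.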
